A study of Mus musculus with 40 samples.

Results

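The immediate early response genes examined here are 10 mouse genes, Fos, Fosb, Jun, Junb, Jund, Egr1, Ier2, Dusp1, Atf3 and Nr4a1, chosen by name and found as 10 of the 49585 gene rows of the count table. Cells switch such genes on within minutes of a stimulus, with no new protein needed, through kinase cascades that act on transcription factors already bound at their promoters, and their RNAs are short-lived. Fos and Jun family proteins pair to form the transcription factor AP-1, while Dusp1 and other induced products feed back on the signal. In haematopoietic cells they respond to growth factors and cytokines, and stress, dissociation and sorting are also known to induce them.

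RNA was measured in bone marrow progenitors of 10 mice of the mixed strain C57BL6/129Ola, aged 46 to 51 days. The Mbd3del group was 5 mice labelled Mbd3 Del/Del (the titles of their LMPP libraries say floxed, against the other labels), and the control group was 5 mice with undeleted floxed alleles (Mbd3 Flox/Flox); the sources used here name no driver of the deletion. Mbd3 encodes a subunit of NuRD, a complex that remodels and deacetylates chromatin. Each mouse gave 4 sorted pools, in developmental order haematopoietic stem cells (HSC), lymphoid-primed multipotent progenitors (LMPP), all-lymphoid progenitors (ALP) and B cell-biased lymphoid progenitors (BLP), so that 8 groups held 5 libraries each. HSCs were gated as CD45+, CD150+, CD48- and EPCR+; the others were all Lin-, Sca-1+, c-Kit+ and Flt3 high, and were told apart by IL-7Ra (absent in LMPPs, present in ALPs and BLPs) and Ly6D (present in BLPs). Cells were sorted straight into lysis buffer. A pool held 150 cells for HSCs and 100 for the other populations per the sample labels, although the series design text assigns these numbers the other way round. In such pools, fewer cells making an RNA and less RNA per cell cannot be told apart.

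Libraries held 2974305 to 9082610 gene counts and 12845 to 15745 detected genes, and mitochondrial genes took 2.35% to 7.75% of the counts. Mbd3 had 0 to 3.24 CPM (counts scaled to a fixed library total, with gene counts as the total) in the 20 Mbd3del libraries and 8.18 to 165 CPM in the 20 control libraries. Stem cell markers summed to 2883 to 4087 CPM in HSC libraries and to 106 to 1433 CPM in the other populations, and B lineage markers summed to 1228 to 3033 CPM in BLPs. Sex-linked transcripts went against the labelled sex in control mouse10372 and control mouse10381. The Mbd3del HSC library of mouse10365 stood apart in neutrophil transcripts: S100a8 had 1157 CPM there, against 0.360 to 17.5 CPM in the other 4 Mbd3del HSC libraries, and S100a9 had 407 CPM against 0 to 4.05 CPM. Of the 10 neutrophil and monocyte markers, 4 were highest in that library, Elane was at 0 and Mpo had 2.91 CPM. The list summed to 2149 CPM there and to 1029 to 1144 CPM in the other 4 libraries. This higher sum came from S100a8 and S100a9, and not every marker was raised. Lyz2 was lowest of the group there, at 490 CPM against 707 to 1089 CPM. Prtn3 had 64.9 CPM there, against 35.5 to 314 CPM. S100a8 and S100a9 were raised to a smaller extent in control HSCs of mouse10357 (129.95 and 44.1 CPM, against 5.01 to 17.9 and 0 to 5.59 CPM in the other control HSCs) and in control LMPPs of mouse10381 (189.6 and 48.2 CPM).

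The promoters are shown as sequence, and their part in how the members varied between libraries was not tested. RefSeq windows on GRCm38.p6, from 250 bases before to 50 after the annotated start, were at hand for 8 members, without Egr1 and Ier2. The Jund window ends at 70697788, before the counted Jund gene starts at 70698949, so it may not hold the promoter of that gene. It is kept in the counts below. The core of the cAMP response element, TGACG on either strand, lay in 6 of the 8 (Fos, Fosb, Junb, Dusp1, Atf3 and Nr4a1), whereas 20.8% of 32851 mouse windows of the same length held it. None of the 8 windows held a CArG box, the motif of serum response factor, which 1.63% of all windows held, and TATAAA on either strand lay in 2 of 8 (Fos and Junb) against 13.6%. Only exact matches inside these windows were sought. CArG boxes farther than 250 bases before the start, and any in Egr1 or Ier2, were therefore not examined. The 250 bases before the start are printed 5′ to 3′ on the gene's strand, with TGACG or its reverse complement CGTCA in capitals, for Fos and Dusp1, the members with the widest spread for their abundance, for Nr4a1, with the most matches, and for Jun, with none.
Fos (chr12:85473640-85473889, plus strand): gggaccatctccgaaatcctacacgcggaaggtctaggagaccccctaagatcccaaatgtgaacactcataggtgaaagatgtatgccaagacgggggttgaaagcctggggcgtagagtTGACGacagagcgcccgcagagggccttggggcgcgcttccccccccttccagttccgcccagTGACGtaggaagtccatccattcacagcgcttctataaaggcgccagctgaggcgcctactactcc
Dusp1 (chr17:26508473-26508722, minus strand): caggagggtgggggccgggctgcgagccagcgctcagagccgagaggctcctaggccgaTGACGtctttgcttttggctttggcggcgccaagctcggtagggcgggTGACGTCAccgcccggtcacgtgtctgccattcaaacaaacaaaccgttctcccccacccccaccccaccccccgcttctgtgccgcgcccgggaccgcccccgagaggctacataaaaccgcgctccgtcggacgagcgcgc
Nr4a1 (chr15:101266596-101266845, plus strand): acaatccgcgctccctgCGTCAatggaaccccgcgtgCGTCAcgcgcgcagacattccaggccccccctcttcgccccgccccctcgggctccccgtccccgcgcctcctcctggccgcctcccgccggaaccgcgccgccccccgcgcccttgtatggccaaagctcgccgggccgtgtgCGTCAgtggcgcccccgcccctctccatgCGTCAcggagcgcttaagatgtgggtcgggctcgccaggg
Jun (chr4:95052223-95052472, minus strand): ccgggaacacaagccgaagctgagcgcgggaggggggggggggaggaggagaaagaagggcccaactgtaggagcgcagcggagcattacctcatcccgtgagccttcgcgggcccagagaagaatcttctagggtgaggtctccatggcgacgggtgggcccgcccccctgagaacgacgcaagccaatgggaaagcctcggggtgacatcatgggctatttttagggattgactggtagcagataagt
The Dusp1 window holds 3 matches, of which a pair overlaps in the palindrome TGACGTCA, the Fos window 2 and the Nr4a1 window 4. Such matches describe the sequence and say nothing of binding in these cells.

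All members but Atf3 were read in most libraries, and Fos, the AP-1 partner that cannot pair with itself, had the widest spread within groups on the log2 scale. Per kilobase of exon, the median level over 40 libraries was 96.0 CPM for Ier2, a nuclear protein of the early response, 69.2 for Fos and 21.8 for Dusp1, a phosphatase that switches off MAP kinases. It was 9.36 for Junb and 8.39 for Egr1, a zinc finger transcription factor. It was 3.32 for Jun, 1.66 for Jund, 0.843 for Nr4a1, an orphan nuclear receptor, and 0.410 for Fosb. Atf3, a stress-induced bZIP factor, had counts in 3 of 40 libraries: 20.2 CPM in Mbd3del HSCs of mouse10365, and 3.72 and 0.159 CPM in Mbd3del ALPs of mouse10361 and mouse10365. It was at 0 in the other 37 libraries, where a count of 0 allows up to 0.330 to 1.01 CPM, depending on depth. Counts of Jun, Junb, Jund and Dusp1 are uncertain because each overlaps a gene on the opposite strand, by 232, 173, 877 and 11 exon bases, and Smart-seq2 reads carry no strand.

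On GRCm38 (GENCODE M21) the AP-1 genes lie apart from each other, with Fos on chromosome 12 (85473890 to 85477273, plus strand), Fosb on 7 (19302696 to 19310051, minus) and Jun on 4 (95049034 to 95052222, minus). Chromosome 8 holds Junb (84974484 to 84978718, minus), Jund (70698949 to 70700616, plus) and Ier2 (84661331 to 84662852, minus). Dusp1 lies on 17 (26505590 to 26562128, minus), Nr4a1 on 15 (101254269 to 101274795, plus), Atf3 on 1 (191170296 to 191218039, minus) and Egr1 on 18 (34859823 to 34864984, plus).

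The lowest, median and highest levels over the 40 libraries were 0.296, 163 and 1243 CPM for Fos, 1.08, 146 and 771 CPM for Ier2, and 0, 72.1 and 762 CPM for Dusp1. They were 0, 37.6 and 1161 CPM for Egr1, 0.154, 21.5 and 264 CPM for Junb and 0, 10.6 and 163 CPM for Jun. Those of Nr4a1 were 0, 2.96 and 168 CPM, those of Fosb 0, 2.56 and 229 CPM and those of Jund 0.712, 2.77 and 33.9 CPM. Fosb was at 0 in 8 libraries, Nr4a1 in 6, Jun in 2, and Egr1 and Dusp1 in 1 each. Group medians ran between 95.2 and 210.2 CPM for Fos, so that its groups differed far less than the libraries within them, and between 3.32 and 151 CPM for Egr1.

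Values per library follow in CPM in the order of the mouse numbers, which is mouse10360, mouse10361, mouse10365, mouse10376 and mouse10384 for Mbd3del, and mouse10357, mouse10358, mouse10372, mouse10380 and mouse10381 for controls. Fos had 171, 187, 1243, 3.69 and 35.1 in Mbd3del HSCs, against 174, 95.2, 8.70, 403 and 6.54 in control HSCs. Its values were 27.9, 437, 474, 210.2 and 1.35 in Mbd3del LMPPs, against 13.0, 155, 0.617, 442 and 203 in control LMPPs. Within each of these groups Fos differed by 61.6-fold to 716-fold between libraries, and the genotypes overlapped throughout. The 716-fold value is uncertain, because the 0.617 CPM of control mouse10372 lies near the 0.463 CPM that a count of 0 allows there. In ALPs Fos had 39.6, 1059, 195, 884 and 1.70 in Mbd3del, against 15.3, 634, 9.22, 131 and 269 in control. In BLPs it had 32.3, 725, 305, 198 and 11.9 in Mbd3del, against 20.5, 389, 0.296, 120 and 224 in control. Mbd3del mouse10384 was lowest and control mouse10372 lowest in all 3 lymphoid populations, and Mbd3del mouse10360 and control mouse10357 were second lowest in each.

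**Figure D1:**
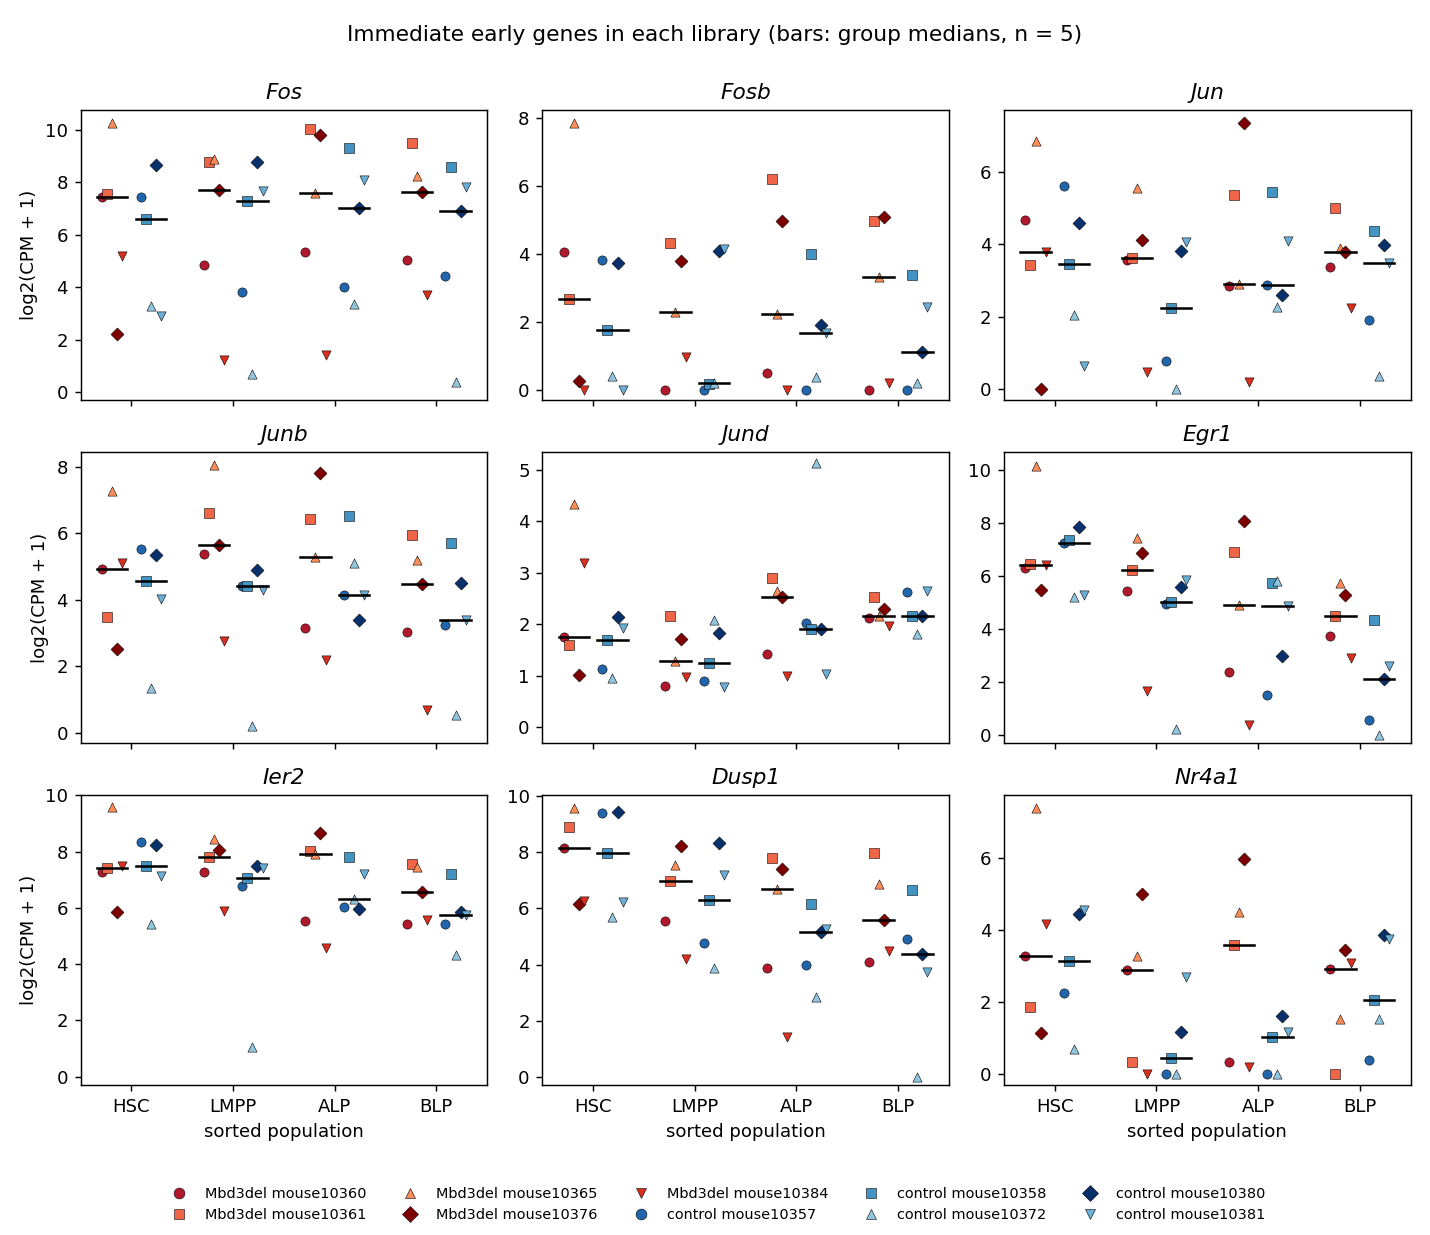
Levels of 9 members as log2(CPM + 1) (y axis) in each library of the 4 sorted populations (x axis), Mbd3del in reds left of control in blues; each symbol is a mouse and each bar a group median (n = 5). For Fos the symbols of a group spread over 2.38 to 3.52 log2 units (SD), and the genotypes overlap in every population.

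The spread of 8 of the 9 fitted members was far wider than that of most genes of like abundance. It was measured as the biological coefficient of variation within groups (BCV, the square root of the edgeR dispersion), set against the trend of all 13800 genes fitted at the same abundance. Fos had a BCV of 1.46 against a trend of 0.354, a ratio of 4.13, and ranked 4th, after the sex-linked genes Xist, Ddx3y and Eif2s3y. Dusp1 had a ratio of 2.78 (rank 9) and Egr1 one of 2.63 (rank 16). The ratios were 1.99 for Fosb, 1.97 for Ier2, 1.83 for Junb, 1.57 for Jun and 1.46 for Nr4a1. All 8 lay above the 90th percentile of genes, whereas Jund had a ratio of 0.601 and lay at the 4.23rd percentile. Its mean was only 4.04 CPM, and 877 of its 1668 exon bases overlap a gene on the opposite strand. By the SD within groups on the log2 scale, Jund lay at the 51.0th percentile. The median ratio was 1.97 over the 9 members and 0.960 over all genes.

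Of 29 other immediate early genes fitted, 16 (55.2%) lay above the trend, as did 43.5% of all 13800 genes. Of the 29, 5 lay above the 90th percentile: Zfp36 (ratio 2.31), Ppp1r15a (1.86), Btg2 (1.74), Dusp2 (1.48) and Klf4 (1.44). The median ratio of that list was 1.03, and that of 12 heat shock genes 0.976, with 2 above the 90th percentile. Both lists, the heat shock genes being those that answer to protein damage, had most of their genes below the 90th percentile. Wide spread was not particular to early genes: of the marker lists, the median ratio was 1.60 for 8 stem cell genes (5 above the 90th percentile), 1.53 for 4 macrophage genes (3) and 1.44 for 9 neutrophil and monocyte genes (5).

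**Figure D2:**
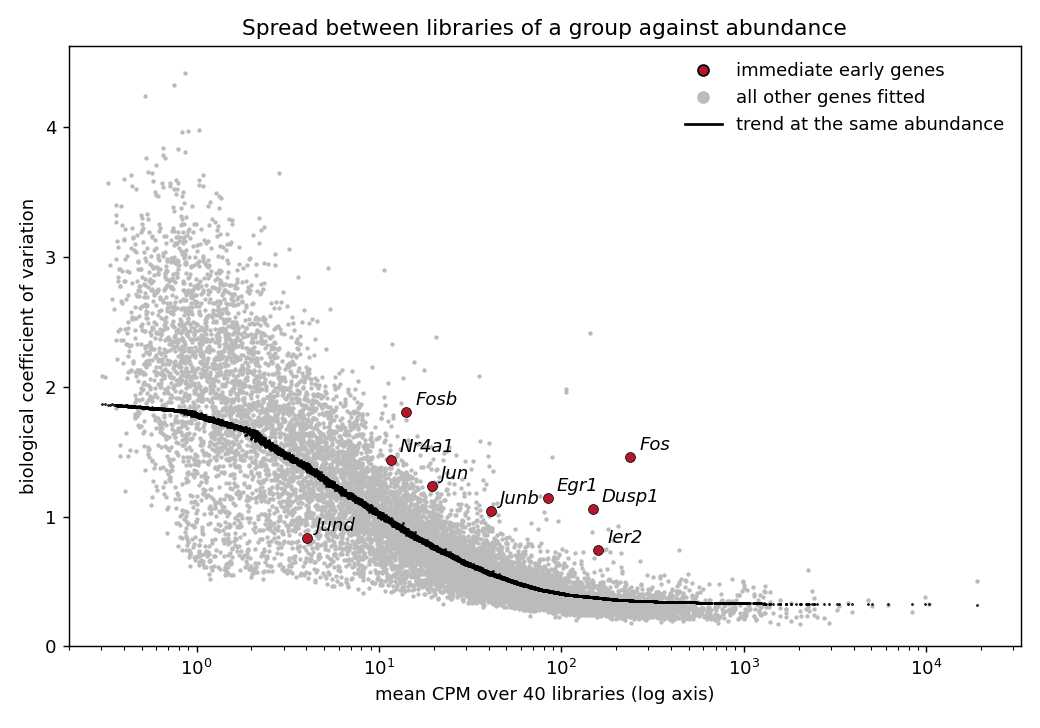
Biological coefficient of variation within groups (y axis) against mean CPM over 40 libraries (x axis, log scale) for 13800 genes, with the members in red and the trend at the same abundance in black. Fos lies 4.13 times above the trend and Jund below it.

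In the lymphoid populations much of this spread followed the mouse. Within-group deviations of log2(CPM + 1), after scaling by the trimmed mean of M values (TMM), were averaged over the populations of each mouse. The share between mice is the sum of squares of these means, taken per library, as a percentage of that of the deviations. A gene with nothing shared still gives about 1 part in 4 over 4 populations and 1 in 3 over 3. The medians over all genes lie near these values. Shares with and without HSCs are therefore not on the same scale. The share between mice had a median of 51.0% over the 9 members and 24.8% over all 13800 genes, and without HSCs 72.2% and 33.5%. For Fos it was 69.2% over the 4 populations and 93.9% over LMPPs, ALPs and BLPs. In those 3 populations it was 81.5% for Fosb, 78.4% for Dusp1, 75.1% for Junb, 72.2% for Jun, 68.2% for Ier2, 65.2% for Egr1, 60.2% for Nr4a1 and 47.3% for Jund. Over all 4 populations the share was 67.8% for Dusp1, 59.0% for Ier2, 56.7% for Junb and 51.0% for Egr1. It was 45.6% for Fosb, 45.2% for Nr4a1, 36.9% for Jun and 23.2% for Jund. Without mouse10372 and mouse10384, a pair chosen after seeing the data, it was 43.2% for Fos and 9.59% for Jun over 4 populations. Of the members, only Nr4a1 (46.1%) and Jund (29.0%) had a higher share without that pair. The median SD within groups was 1.83 log2 units over the members and 0.715 over all genes.

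The 8 members with a mean of at least 5 CPM, all but Jund and Atf3, deviated together. Over the 28 pairs of these genes, Pearson's r of the group-centred values had a median of 0.782 and ran between 0.418 (Dusp1 and Nr4a1) and 0.918 (Fos and Dusp1), over 40 libraries that share mice, so that the points are not independent. Their mean deviation, in SD units, was below 0 in all 3 lymphoid populations of Mbd3del mouse10360 and mouse10384 and of control mouse10357 and mouse10372. It was above 0 in all 3 for Mbd3del mouse10361, mouse10365 and mouse10376 and for control mouse10358 and mouse10381, and in 2 of 3 for control mouse10380. Both genotypes therefore held mice of either kind. HSC pools often did not follow: of the 9 mice whose lymphoid pools lay on one side of 0, the HSC pool lay on the other side in 5. Its mean deviation was -1.30 in Mbd3del mouse10376, -0.61 in control mouse10381 and -0.11 in Mbd3del mouse10361, whose lymphoid pools were above 0, and 0.64 in control mouse10357 and 0.17 in Mbd3del mouse10360, whose lymphoid pools were below 0. Mbd3del mouse10384 and control mouse10372 were below 0 in all 4 populations.

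The labels give no sort date, so sorting and mouse cannot be told apart. Both mice labelled 46 days, 1 of each genotype, were low in the lymphoid populations. At 47 days Mbd3del mouse10361 and control mouse10358 were above 0 in all 3 and control mouse10372 below. Mbd3del mouse10365, the only mouse labelled 48 days, was above 0 in all 3. At 50 days Mbd3del mouse10376 was above 0 in all 3 and control mouse10380 in 2. At 51 days control mouse10381 was above 0 in all 3 and Mbd3del mouse10384 below. Whether the members followed age cannot be read from the labels, because control mouse10372 (labelled 47 days) and control mouse10381 (labelled 51 days) are the mice whose labelled sex went against their transcripts. Single libraries also stood apart in RNA measures. Mbd3del HSCs of mouse10365 were highest of their group in 9 of 9 members, where 23.9% of all genes were highest in that library, and had the lowest mitochondrial share (3.06%) and the most detected genes (15442) of the 5. Mbd3del ALPs of mouse10384 were lowest in 9 of 9 members, against 21.5% of all genes, with the highest mitochondrial share of that group (6.45%). Control LMPPs of mouse10372 were lowest in 6 of 9 members, against 27.0% of all genes, and had the highest mitochondrial share (7.75%) and the fewest detected genes (12845) of all 40 libraries. Other libraries ran the other way: control BLPs of mouse10372 were lowest in 7 of 9 members with the lowest mitochondrial share of their group (3.80%), and control HSCs of mouse10381 were lowest in 4 of 9 with the lowest share (3.53%) and the most detected genes (15389) of theirs. The part of RNA quality, of neutrophil transcripts or of handling in these levels was not tested.

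**Figure D3:**
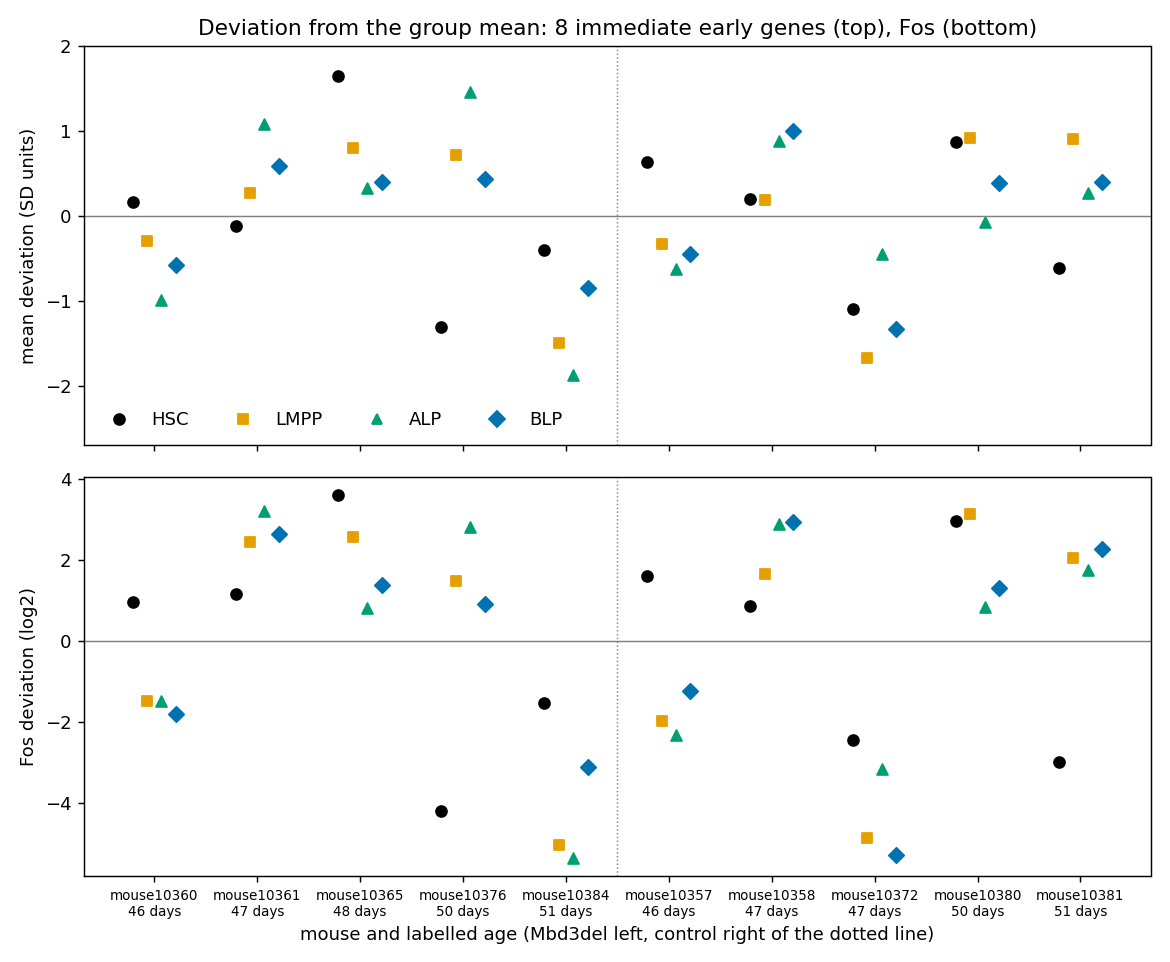
Deviation of each library from its group mean, as the mean over 8 members in SD units (top) and for Fos in log2 units (bottom), by mouse with its labelled age (x axis); symbols are the 4 populations, with Mbd3del mice left and control mice right of the dotted line. The lymphoid pools of a mouse lie on the same side of 0 in 9 of 10 mice in the top panel.

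The genes whose deviations were most like those of the 8 members, among 10217 non-members with a mean of at least 5 CPM, were led by Zfp36 (r = 0.914), which encodes an RNA-binding protein that destabilises short-lived mRNAs, and Ppp1r15a (0.826), which encodes a stress-induced phosphatase subunit. Others among the most alike were Hist1h2bg (0.767), Slc3a2 (0.750), an amino acid transporter chain, and Dusp2 (0.724). Noc4l (0.719), Scrn2 (0.717), Rrp9 (0.708) and Ap1s1 (0.704) were also among them, each r over the same 40 libraries. Over 24 other immediate early genes the median r was 0.28, over 10 heat shock genes 0.13 and over all candidates 0.03.

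Loss of Mbd3 was not accompanied by a called change of any member in any population. The absence of a call does not show an absence of change. Mbd3 itself was called in HSCs, LMPPs and BLPs but not in ALPs (log2 fold change -6.09 ± 1.05, SE, edgeR adjusted p = 0.128). Among the members the SE reached 1.59 log2 units, for Fosb in LMPPs. In HSCs the edgeR test called 0 of 9 tested members, against a background of 0.0176% of 11358 genes, and in LMPPs 0 of 7, against 0.0183% of 10918. In ALPs it called 0 of 8, against 0.0182% of 11009, and in BLPs 0 of 9, against 0.0743% of 10772. DESeq2 called 0 members in each, and at an unadjusted p under 0.05 LMPPs had 1 (Junb), BLPs had 1 (Egr1), and neither HSCs nor ALPs had any. Most fold changes were nonetheless positive, with 8 of 9 in HSCs, 7 of 7 in LMPPs, 7 of 8 among ALPs and 7 of 9 among BLPs, in members whose deviations moved together and which are not independent. Their median log2 fold changes were 1.02, 0.77, 1.29 and 0.76 in these populations, against 0.02, 0.01, -0.04 and -0.03 over all genes tested. A macrophage marker, Cd68, was higher in Mbd3del in all 4 populations. Its log2 fold changes were 2.68 ± 0.46 in HSCs (SE, edgeR adjusted p = 0.0867), 1.31 ± 0.24 in LMPPs (0.148), 1.13 ± 0.32 in ALPs (0.99993) and 2.87 ± 0.39 in BLPs (0.0105), where it was called. The 7 macrophage markers, mostly Cd68, summed to 92.8 to 361 CPM in Mbd3del libraries and to 5.02 to 101 CPM in control libraries. Adgre1, a defining marker, had at most 0.720 CPM in Mbd3del and 3.57 CPM in control. Other markers of the list had low medians and shared no direction. In ALPs C1qb had a median of 0 CPM in Mbd3del and 2.23 CPM in control, and in LMPPs C1qa had 1.61 and 0 CPM. In BLPs 1 of 8 tested neutrophil and monocyte markers was called, Ly6c2, at 2.73 ± 0.43 (edgeR adjusted p = 0.0384). The part of these transcripts in the members' fold changes was not tested.

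Fosb, the Fos relative with the lowest level per length of those read in most libraries, had the highest fold change in HSCs. It had 15.5, 5.38, 229, 0.205 and 0 CPM in Mbd3del HSCs, against 13.0, 2.36, 0.311, 12.1 and 0 CPM in control HSCs. A single library, that of mouse10365 with its high S100a8 and S100a9, was high, and the groups overlapped. The log2 fold change of Fosb was 2.95 ± 1.55 (SE, edgeR adjusted p = 0.955) and turned to -0.08 without that mouse. Fos (1.05 ± 1.43, edgeR adjusted p = 0.958), Egr1 (1.02 ± 0.83, 0.955) and Nr4a1 (1.62 ± 1.08, 0.955) turned negative without it as well, to -0.51, -0.83 and -0.70, while Jund had 1.43 ± 0.96 (0.955). Egr1 had 78.7, 87.4, 1161, 43.5 and 84.4 CPM in Mbd3del HSCs, against 151, 164, 36.3, 229.7 and 37.7 CPM in control HSCs, so that 4 of the 5 Mbd3del libraries lay below the control median.

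Junb, an AP-1 subunit, had the highest fold change in LMPPs. It had 40.2, 97.2, 264, 49.2 and 5.81 CPM in Mbd3del LMPPs, against 20.4, 20.2, 0.154, 28.4 and 18.4 CPM in control LMPPs. The first 4 Mbd3del libraries lay above every control library and the fifth below 4 of them. The log2 fold change was 2.31 ± 0.93 (SE, edgeR adjusted p = 0.936), and those of Jun and Egr1 were 1.26 ± 1.22 (0.971) and 1.22 ± 0.96 (0.958).

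In ALPs 7 members passed the fold of 1 for which values are given. Log2 fold changes were 2.38 ± 1.51 for Fosb, 1.59 ± 0.88 for Dusp1, 1.55 ± 1.11 for Egr1, 1.48 ± 1.10 for Jun, 1.10 ± 0.85 for Junb, 1.02 ± 1.33 for Fos and -1.06 ± 1.07 for Jund (SE, edgeR adjusted p = 0.99993 for each). Jund had 1.67, 6.44, 5.25, 4.74 and 0.991 CPM in Mbd3del ALPs, against 3.06, 2.75, 33.9, 2.75 and 1.04 CPM in control ALPs. The single high value was that of control mouse10372, which had the most detected genes of all libraries (15745) and the highest Mbd3 level (165 CPM), and without it the fold change of Jund was 0.63. Jun had 163 CPM in mouse10376 and 0.142 to 40.4 CPM in the other Mbd3del ALPs, against 3.87 to 42.8 CPM in control ALPs, and without mouse10376 its fold change was -0.11.

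In BLPs Fosb had 0, 30.2, 8.88, 33.2 and 0.154 CPM in Mbd3del, against 0, 9.44, 0.148, 1.15 and 4.45 CPM in control, and Egr1 had 12.3, 21.7, 52.7, 37.6 and 6.48 CPM against 0.459, 19.1, 0, 3.32 and 5.01 CPM. The groups overlapped for both, for Egr1 through control mouse10358 alone. Log2 fold changes were 2.31 ± 1.51 for Fosb (SE, edgeR adjusted p = 0.783), 2.27 ± 1.04 for Egr1 (0.588) and 1.52 ± 0.98 for Dusp1 (0.775). Of the lists of related genes, none had a called gene between genotypes in any population. Those were the other immediate early genes (25 to 28 tested), other AP-1 partners (10 or 11, and 9 in LMPPs), upstream kinases and factors (17 or 18) and heat shock genes (10 to 12). The median log2 fold change of the other immediate early genes was 0.23 in HSCs and 0.49 in LMPPs, and 0.14 in both later populations.

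Egr1 fell between the ends of the series, with less in BLPs than in HSCs in both genotypes. In Mbd3del it had 12.3, 21.7, 52.7, 37.6 and 6.48 CPM in BLPs, against 78.7, 87.4, 1161, 43.5 and 84.4 CPM in HSCs. In controls it had 0.459, 19.1, 0, 3.32 and 5.01 CPM in BLPs, against 151, 164, 36.3, 229.7 and 37.7 CPM in HSCs. The control groups did not overlap, as for 16.9% of the genes tested there, and in Mbd3del a single BLP library lay above a single HSC library. The log2 fold change was -3.16 ± 0.86 in Mbd3del (SE, edgeR adjusted p = 0.0180) and -4.42 ± 1.01 in controls (edgeR adjusted p = 0.00705). Without mouse10365, whose HSC library was high in S100a8 and S100a9, it was -1.71 in Mbd3del (edgeR adjusted p = 0.0462). With the mouse as a block, it was -2.45 in Mbd3del (edgeR adjusted p = 0.0154) and -5.26 in controls (0.00500). The Mbd3del call was lost in the joint fit of 40 libraries (edgeR adjusted p = 0.0541) and without the expression filter (0.108), where the control call was lost too (0.0616), and DESeq2 gave Egr1 no adjusted p in Mbd3del. Group medians of Egr1 ran 84.4, 73.9, 29.3 and 21.7 CPM from HSC through LMPP and ALP to BLP in Mbd3del, and 151, 31.9, 28.3 and 3.32 CPM in controls, and no step between neighbours was called.

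Dusp1 fell in control BLPs. It had 29.4, 99.5, 0, 19.7 and 12.2 CPM in control BLPs, against 679, 248.8, 51.2, 687 and 73.3 CPM in control HSCs, and the groups overlapped through the BLP library of mouse10358. In Mbd3del it had 15.9, 253, 115, 46.9 and 21.3 CPM in BLPs, against 283, 483, 762, 70.9 and 76.7 CPM in HSCs. The log2 fold change was -3.39 ± 1.02 in controls (SE, edgeR adjusted p = 0.0369) and -1.71 ± 0.75 in Mbd3del (edgeR adjusted p = 0.138), or -1.79 with the mouse as a block (edgeR adjusted p = 0.0328). In fits without the block, the control call was lost without mouse10357 (edgeR adjusted p = 0.152), mouse10380 (0.155) or mouse10381 (0.0680). With the mouse as a block and all 5 mice, the log2 fold change of Dusp1 in controls was -3.87 (edgeR adjusted p = 0.00938). Ier2 had 42.3, 186, 175, 94.1 and 46.7 CPM in Mbd3del BLPs against 156, 169, 771, 56.6 and 179 CPM in Mbd3del HSCs, and 41.9, 147, 19.3, 56.7 and 52.3 CPM in control BLPs against 323, 179, 41.6, 299 and 140.2 CPM in control HSCs. Its log2 fold change was -1.03 ± 0.57 in Mbd3del (SE, edgeR adjusted p = 0.242) and -1.57 ± 0.54 in controls (0.0661), or -1.54 in controls with the mouse as a block (0.0232).

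These calls made up 1 of 9 tested members in Mbd3del, where 19.3% of 11258 genes were called, and 2 of 9 in controls, where 15.7% of 11195 genes were called, so the share of members called was near the background. Over the same interval Fos had log2 fold changes of -0.11 ± 1.25 in Mbd3del (edgeR adjusted p = 0.967) and 0.17 ± 1.21 in controls (0.955). Of the others past a fold of 1 in Mbd3del, Nr4a1 had -2.53 ± 1.196 (edgeR adjusted p = 0.168) and Fosb -1.44 ± 1.56 (0.584). The HSC pools also differed from the others in labelled cell number, and the part of that difference in these folds was not tested.

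Other early genes did not share one direction over that interval. Of the other immediate early genes, BLPs over HSCs had 2 called higher and 2 lower of 27 in Mbd3del, and 4 higher and 4 lower of 28 in controls. Over all genes tested, 19.3% were called in Mbd3del and 15.7% in controls, which is the background for each list here. Cd69, an early activation antigen, rose by a log2 fold change of 4.97 ± 0.42 in Mbd3del (SE, edgeR adjusted p = 1.12e-06) and 3.80 ± 0.27 in controls (3.64e-07). Ier3 fell in both, at -5.22 ± 0.79 (2.57e-04) and -3.34 ± 0.74 (0.00558), Btg2, an antiproliferative gene, rose at 2.90 ± 0.83 (0.0229) and 2.47 ± 0.61 (0.0115), and Klf6 fell at -1.60 ± 0.50 (0.0342) and -1.45 ± 0.42 (0.0295). Klf10 had -0.97 ± 0.39 in Mbd3del (SE, edgeR adjusted p = 0.107) and fell in controls at -1.94 ± 0.36 (0.00166). Of 11 other AP-1 partners, 4 were called lower and 0 higher in Mbd3del, and 1 lower and 1 higher in controls; Batf, a bZIP factor of lymphocytes that pairs with Jun proteins, fell in both, at -2.08 ± 0.63 (0.0307) and -1.54 ± 0.40 (0.0154). Of 17 upstream kinases and factors, 1 was called higher and 1 lower in Mbd3del, and 1 higher and 2 lower in controls; Crem, a factor that binds cAMP response elements, rose at 2.96 ± 0.45 (2.76e-04) and 2.72 ± 0.41 (3.48e-04).

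**Figure D4:**
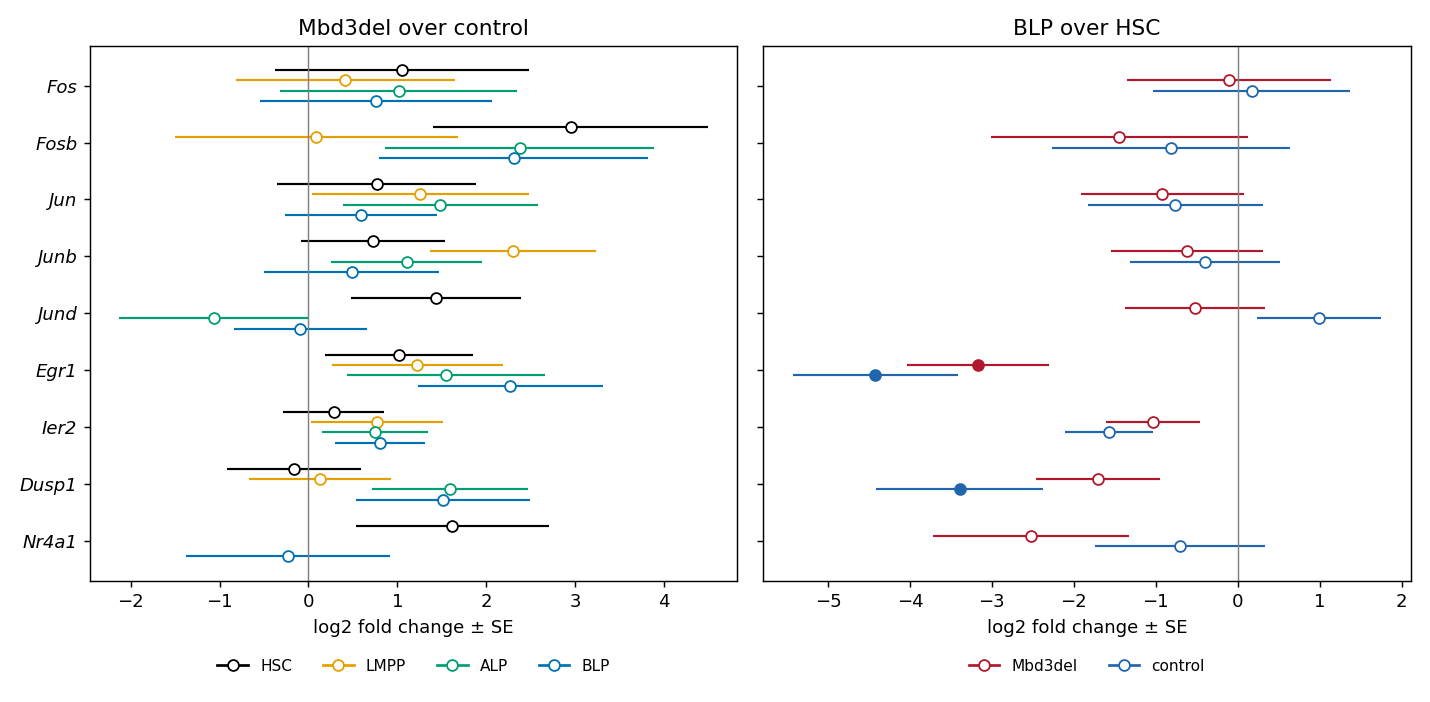
Log2 fold changes ± SE (x axis) of the tested members (rows), Mbd3del over control in the 4 populations (left) and BLP over HSC in Mbd3del and in control (right); filled points passed an edgeR adjusted p of 0.05. No point is filled on the left, and on the right Egr1 is filled in both genotypes and Dusp1 in controls.

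No member was called by edgeR at any step between neighbouring populations. From HSC to LMPP the count was 0 of 9 in Mbd3del, where 6.74% of genes were called, and 0 of 9 in controls, where 5.93% were called. From LMPP to ALP it was 0 of 9 (background 2.18%) and 0 of 8 (0.938%), and from ALP to BLP 0 of 9 (0.636%) and 0 of 9 (0.266%). DESeq2 also called 0 members at each step, and an unadjusted p under 0.05 was reached by Egr1 in LMPPs over HSCs and by Dusp1 in ALPs over LMPPs, both in controls.

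Log2 fold changes of LMPPs over HSCs in Mbd3del were -2.59 ± 1.52 for Fosb (SE, edgeR adjusted p = 0.395), -1.86 ± 1.31 for Nr4a1 (0.5005), -1.71 ± 0.94 for Jund (0.363), -1.69 ± 0.95 for Egr1 (0.379), -1.24 ± 0.71 for Dusp1 (0.385) and 1.10 ± 0.86 for Junb (0.557). In controls they were -2.87 ± 1.41 for Nr4a1 (SE, edgeR adjusted p = 0.320), -1.88 ± 0.84 for Egr1 (0.264), -1.53 ± 0.84 for Dusp1 (0.401) and -1.28 ± 1.28 for Jun (0.697). Nr4a1 had 0, 0.374, 0, 1.28 and 5.46 CPM in control LMPPs, against 3.79, 7.82, 0.621, 21.1 and 22.5 CPM in control HSCs, with 3 LMPP libraries below every HSC library. The lowest HSC value, in mouse10372, lies under the 0.932 CPM that a count of 0 allows there. Those 3 LMPP libraries are therefore not told apart from it.

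ALPs over LMPPs gave 1.55 ± 1.44 for Fosb (SE, edgeR adjusted p = 0.833), 1.33 ± 1.17 for Jun (0.820) and 1.14 ± 0.87 for Jund (0.767) in Mbd3del. In controls the step gave -1.85 ± 0.76 for Dusp1 (SE, edgeR adjusted p = 0.553), 2.06 ± 1.15 for Jund (0.741) and 1.09 ± 1.19 for Jun (0.894). Dusp1 had 14.98, 70.4, 6.24, 35.2 and 37.2 CPM in control ALPs, against 26.4, 77.0, 13.6, 323 and 147 CPM in control LMPPs, lower in the ALP pool of each of the 5 mice.

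BLPs over ALPs gave -1.66 ± 1.26 for Nr4a1 (SE, edgeR adjusted p = 0.874), -1.53 ± 1.04 for Egr1 (0.845), -1.45 ± 1.04 for Jun (0.855) and -1.40 ± 0.99 for Junb (0.848) in Mbd3del. In controls they gave 2.80 ± 1.35 for Nr4a1 and -2.25 ± 1.15 for Egr1 (SE, edgeR adjusted p = 0.998 for each). Nr4a1 had 0.306, 3.23, 1.93, 13.5 and 12.5 CPM in control BLPs, against 0, 1.05, 0, 2.09 and 1.27 CPM in control ALPs, higher in the BLP pool of 4 of the 5 mice; in mouse10357 the BLP value lies under what a count of 0 allows in its ALP library.

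Whether a step differed between genotypes was tested as an interaction, and edgeR called 0 of 9 members for each of the 3 steps, where 0% of 12576, 12237 and 12123 genes were called and DESeq2 called 0 members. An unadjusted p under 0.05 was reached by Nr4a1 alone, for BLPs over ALPs, at -4.47 ± 1.93 log2 units (SE, edgeR adjusted p = 0.99997). For LMPPs over HSCs the differences past 1 were -2.87 ± 2.34 for Fosb, 1.59 ± 1.31 for Junb and -1.58 ± 1.37 for Jund (SE, edgeR adjusted p = 0.9998 for each). For ALPs over LMPPs they were 2.30 ± 2.32 for Fosb, 1.60 ± 2.19 for Nr4a1, 1.47 ± 1.27 for Dusp1 and -1.19 ± 1.32 for Junb (SE, edgeR adjusted p = 0.999 for each). These fits held no term for the mouse, although both pools of a step came from the same mice. Their standard errors for the members ran as high as 2.34 log2 units. A missing call therefore does not show that a step was alike in the genotypes. With the mouse as a block no member was called either, and the difference of Fosb for LMPPs over HSCs was 1.45.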

How the data were processed

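The authors deposited raw read counts per gene for 40 Smart-seq2 libraries. The submitters' processing notes name STAR 2.5.2b, HTSeq 0.6.1p1 and the build GRCm38, and no source used here gives the annotation or strand setting. Of 128910 rows, 79325 named repRegion (0.205% to 2.28% of a library's counts) stayed out. Of 49585 gene rows, 49326 matched GENCODE M21, which gave symbols and exon lengths. Tests were quasi-likelihood tests in edgeR 4.0.16, run under R 4.3.3 (robust fit, TMM scaling, minimum count 10 and minimum total 15, Benjamini-Hochberg at 0.05 over all genes), each comparison on its own 10 libraries, interactions on 20. SE is the fold change divided by the square root of F. DESeq2 1.42.0 was an alternative. Folds are given for members called, not overlapping, or with a log2 fold change of at least 1; other list genes are among up to 4 per comparison with the smallest adjusted p, and genes most like the members the 10 with the highest r, of which 1 is not reported here. BCV came from a joint fit of 40 libraries. A pseudocount of 1 was used for log2(CPM + 1). Same-numbered pools come from 1 mouse, so the mouse was a block in the alternative fits of steps; genotypes share no mice. Amplified reads are not independent molecules, and floors (3 counts) cover counting error only. The scripts were tested on simulated data. Members and lists were chosen with earlier results of these data known.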

Additional observations from a re-analysis of the deposited data

Results flagged for a closer look

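Of 74 groups of 5 libraries examined over the members, 7 (9.46%) had a highest or lowest library far from the rest, where chance flags about 1 in 20 independent groups. These groups are not independent, since they share libraries, and a gene with counts in 1 library of 5 always stands apart in this way. In Mbd3del HSCs mouse10365 was high for Egr1, at 1161 CPM with the next library at 87.4 CPM, and for Atf3, at 20.2 CPM with the others at 0; this is the library with 1157 CPM of S100a8. In Mbd3del ALPs Atf3 had 3.72 CPM in mouse10361, with the next library at 0.159 CPM. In control LMPPs mouse10372 was low for Junb (0.154 CPM, next 18.4 CPM), Egr1 (0.154 CPM, next 29.8 CPM) and Ier2 (1.08 CPM, next 109 CPM), and this library had the fewest detected genes (12845). In control ALPs mouse10372 was high for Jund, at 33.9 CPM with the next library at 3.06 CPM. What sets these libraries apart was not tested.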

How the results depend on the processing

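Of the counts of members called, 9 moved by over 1.5 times. For BLPs over HSCs in Mbd3del the count was 0 without the expression filter (edgeR adjusted p = 0.108 for Egr1), 0 in the joint fit of 40 libraries (0.0541), 0 by DESeq2, which gave Egr1 no adjusted p, and 2 with the mouse as a replicate block, where Dusp1 was added. In controls it was 0 without the filter (0.0616 for Egr1 and 0.146 for Dusp1) and 1 to 3 when a replicate was left out, Dusp1 being lost without mouse10357, mouse10380 or mouse10381. Ier2 was called there by DESeq2 (adjusted p = 0.0209), with the block (edgeR adjusted p = 0.0232), without mouse10372 and mouse10381 (0.0444), without mouse10358 (0.0271) and without mouse10372 (0.0236). For LMPPs over HSCs in controls it was 1 without the 2 mice at odds with their labelled sex, mouse10372 and mouse10381 (Egr1, edgeR adjusted p = 0.0104). The block changed no other member's call.

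Log2 fold changes that changed sign were all of genes not called. Leaving out 1 mouse at a time gave, between genotypes in HSCs, -0.51 to 2.04 for Fos, -0.083 to 3.49 for Fosb, -0.83 to 1.39 for Egr1 and -0.70 to 2.02 for Nr4a1. For LMPPs over HSCs in Mbd3del it gave -3.57 to 0.63 for Fosb and -3.49 to 0.52 for Nr4a1, and for BLPs over HSCs -2.43 to 1.72 for Fosb and -3.22 to 0.015 for Nr4a1. The interaction of Fosb for LMPPs over HSCs ran from -3.84 to 0.34. In each of these the change of sign came without mouse10365. Without mouse10376 the sign of Jun changed, with ranges of -0.11 to 2.35 between genotypes in ALPs, -0.28 to 2.37 for ALPs over LMPPs and -1.93 to 0.15 for BLPs over ALPs in Mbd3del. Between genotypes in ALPs Jund ran from -1.34 to 0.63, positive without mouse10372, and was 0.38 without mouse10372 and mouse10381 and 0.86 without mouse10372 and mouse10384, a pair chosen after seeing the data. The interaction of Nr4a1 for ALPs over LMPPs ran from -0.024 (without mouse10381) to 2.31 and was -0.020 without both mice at odds with their labels. With the replicate block Jun was 0.31 and Egr1 0.10 for BLPs over ALPs in Mbd3del, and the interaction of Fosb for LMPPs over HSCs 1.45. The causes were not tested.

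Counts of all genes called moved more. Between genotypes they were 0 to 43 in HSCs, 1 to 104 in LMPPs, 0 to 38 in ALPs and 0 to 245 in BLPs under the alternatives, against 2, 2, 2 and 8. In Mbd3del and controls they were 507 to 1704 (against 766) and 432 to 1682 (655) for LMPPs over HSCs, 121 to 697 (242) and 31 to 453 (102) for ALPs over LMPPs, 17 to 292 (69) and 8 to 154 (29) for BLPs over ALPs, and 1724 to 3591 (2174) and 1403 to 3150 (1755) for BLPs over HSCs. For the interactions they were 0 to 38, 0 to 27 and 0 to 25, against 0.

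The median SD within groups over the members depended on the pseudocount, at 1.23 log2 units with 5 and 1.99 with 0.5, and moved by over 1.5 times with 5 for Fosb (1.23), Nr4a1 (0.966), Jun (1.198) and Jund (0.397). Without scaling it was 1.85. The share between mice was 48.9% to 51.3% under these settings. With each mouse left out, chosen after seeing the data, the BCV of Fos was 3.84 to 4.22 times the trend, and without mouse10372 and mouse10384 it was 3.66 times, while the median share between mice over the members was 41.0% in all populations and 65.4% without HSCs.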
